A study of Homo sapiens with 6 samples.

Results

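The genes described here encode the transcription factors that build the red cell programme and the proteins that hold them together on DNA. The 10 genes GATA1, KLF1, TAL1, LMO2, LDB1, ZFPM1, GFI1B, NFE2, BCL11A and CBFA2T3 were chosen by name, for their known roles. The choice was made with earlier results of these data known. All 10 were among the 14821 genes of the deposited table and among the 14203 with enough reads to be tested. Messenger RNA was sequenced from F36P, an established human cell line of acute erythroid leukaemia. In the ERG group (3 libraries) the cells carried the retrovirus MSCV-PIG-AM-ERG, which drives expression of ERG, an ETS-family transcription factor. In the vector group (3 libraries) they carried the empty retrovirus MSCV-PIG, which the labels give as genotype WT. All cells of both groups had been kept in 1 µg/ml puromycin for 4 days to select those with a virus. The submitters asked how ERG holds back erythroid differentiation.

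In developing red cells GATA1 binds DNA at GATA motifs, with ZFPM1 (also called FOG1) as its cofactor. TAL1, a helix-loop-helix protein, binds nearby together with an E protein. LMO2 bridges TAL1 and GATA1, and LDB1, which binds LMO2 and forms dimers, can draw distant enhancers to promoters. CBFA2T3 (also called ETO2) sits on this complex as a corepressor. KLF1 is a later activator that binds CACCC motifs of globin and other red cell genes. GFI1B represses genes of other fates through the demethylase KDM1A, NFE2 is the larger subunit of a dimer that activates globin genes, and BCL11A silences fetal globin.

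Total counts per library ran between 12421407 and 14803031 with ERG, and between 10257141 and 13615797 with vector. Levels are given as CPM, the count of a gene scaled to a common library size after TMM normalisation. ERG itself stood at 97.4, 103 and 104 CPM in the ERG libraries, against 28.1, 14.6 and 22.4 CPM in the vector libraries, and reads of the introduced and the cells' own ERG cannot be separated. The replicates are called biological, without word of separate cultures or transductions. The p-values therefore rest on the spread of these libraries alone, which may be technical. ERG replicates 1 and 2 lay far closer to each other (chi-square of their counts 2.20 per degree of freedom) than any other pair of libraries (21.6 to 86.9). Over all tested genes, vector replicate 1 resembled ERG replicates 1 and 2 (r = 0.967 and 0.966) more than the other vector libraries (r = 0.957 and 0.954). ERG replicate 3 resembled vector replicates 2 and 3 (r = 0.965 and 0.974) more than the other ERG libraries (r = 0.962 with each). ERG 1, ERG 2 and vector 1 are called library set A below and ERG 3, vector 2 and vector 3 library set B, and results are given within each set where they rest on them.

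A gene is called lower or higher with ERG at an edgeR adjusted p under 0.05 over all tested genes. Of all tested genes 0.732% were called lower and 1.47% higher. All 10 erythroid markers examined were in the table. Their summed level was 3274 to 6250.3 CPM in ERG libraries against 10331 to 18307 CPM in vector libraries, with 3 of 10 called lower. Of 8 megakaryocyte markers 6 were in the table, summing to 1299.9 to 2404 CPM with ERG against 536 to 1159 CPM with vector, with 4 called higher and with PPBP and SELP at 0 in at least 1 library. All 6 mast cell markers were in the table, at 1830.1 to 1893 CPM with ERG against 600.1 to 930 CPM with vector, with 3 called higher. In bulk RNA fewer cells of a kind and less RNA per cell cannot be told apart, and the part of these shifts in the changes below was not tested. Of 5 monocyte and granulocyte markers 2 were in the table, at 92.3 to 206 CPM with ERG against 102 to 254 CPM with vector. Of 5 lymphoid markers 1 was in the table, at 22.3 to 41.0 CPM with ERG against 11.6 to 27.3 CPM with vector.

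With ERG, 2 of the 10 factor genes fell, KLF1 by 1.97-fold and LMO2 by 1.92-fold, and 0 rose (edgeR quasi-likelihood test, two-sided, adjusted p under 0.05 over all tested genes). Of all tested genes 0.732% passed as lower and 1.47% as higher. LDB1 also lay lower in every ERG library than in any vector library, but did not pass. For GATA1, TAL1, ZFPM1, GFI1B, NFE2, BCL11A and CBFA2T3 the ERG and vector libraries overlapped. The median log2 fold change was -0.23 over the 10 genes and -0.01 over all tested genes, with 7 of the 10 and 51.1% of all tested genes below 0. Of the 10 genes, 3 had all ERG libraries below all vector libraries, as 9.54% of all tested genes did, and 0 had them all above, as 12.3% of all tested genes did. At an unadjusted p under 0.05 there were 3 lower and 0 higher among the 10, and 6.66% lower and 9.25% higher among all tested genes. DESeq2 called 3 of the 10 lower and 0 higher, and of all tested genes 2.89% lower and 4.2% higher. The 2 calls depend on the libraries kept: without ERG replicate 1 or without ERG replicate 2 edgeR called 0 of all tested genes (1278 and 1256 at an unadjusted p under 0.05). With the library set as a term edgeR called 4 lower and 0 higher, and of all tested genes 5.96% lower and 7.2% higher.

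**Figure D1:**
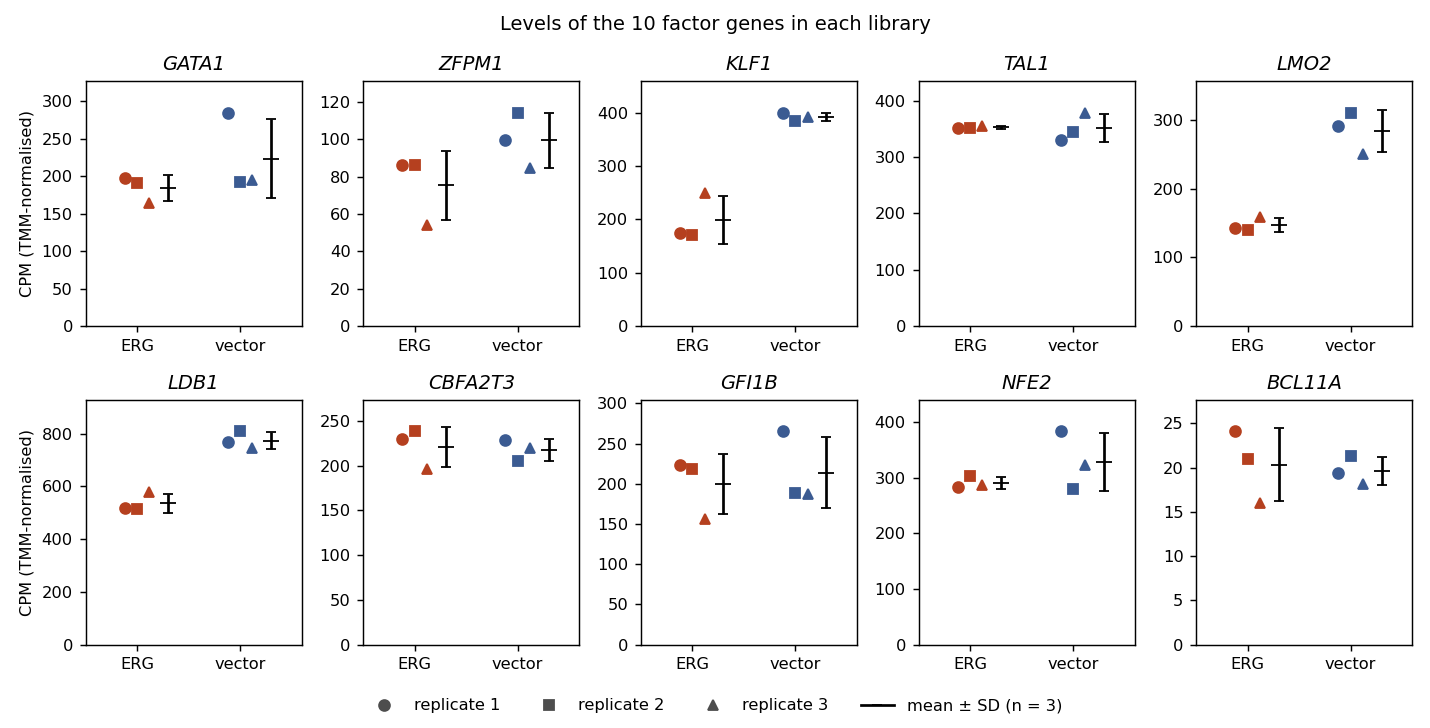
Levels of the 10 genes in CPM (vertical axes, each from 0) in ERG libraries at left and vector libraries at right; points are libraries, with a symbol for each replicate number, and bars are the mean ± SD of 3. KLF1, LMO2 and LDB1 show ERG libraries wholly below the vector libraries, while the other panels overlap.

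GATA1, the factor on which red cell development depends, lies on chromosome X from 48786554 to 48794311 (hg38, GENCODE release 29, plus strand). It was at 198, 191 and 164 CPM in ERG replicates 1, 2 and 3, against 284, 192 and 194 CPM in vector replicates 1, 2 and 3. Vector replicate 1 stood above all other libraries, and vector replicates 2 and 3 lay between the ERG values. The mean was 184 ± 17.6 CPM with ERG and 223 ± 52.6 CPM with vector (SD, n = 3 each), and the log2 fold change of -0.28 did not pass (SE 0.19, 95% interval -0.72 to 0.16, edgeR adjusted p = 0.518). Inside set A the difference of log2 CPM was -0.55 and inside set B -0.23. With the set as a term of the model the log2 fold change was -0.39 and passed (edgeR adjusted p = 0.0246). Since the sets were drawn from these libraries and ERG replicates 1 and 2 are so close, p-values with that term may be too low. Without vector replicate 1 the log2 fold change was -0.07.

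ZFPM1, the GATA1 cofactor (chromosome 16, 88453317 to 88537016), was at 86.1, 86.1 and 54.0 CPM in ERG libraries 1 to 3, against 99.9, 114 and 84.4 CPM in vector libraries 1 to 3. The lowest value was that of ERG replicate 3, and vector replicate 3 lay just under the other ERG libraries. The log2 fold change of -0.40 did not pass (95% interval -0.90 to 0.10, edgeR adjusted p = 0.414), with differences of -0.21 inside set A and -0.86 inside set B. Its interval holds both no change and a fall to 0.536 of the vector level.

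KLF1 (chromosome 19, 12884422 to 12887199, minus strand) had the largest log2 change of the 10 genes. Its ERG libraries held 175, 171 and 250.3 CPM, against 400.0, 385 and 392 CPM in the vector libraries. The vector libraries were within a narrow band and every ERG library was below it, with ERG replicate 3 the nearest. The mean was 199 ± 44.6 CPM with ERG and 392 ± 7.36 CPM with vector (SD, n = 3 each; log2 fold change -0.98, SE 0.18, 95% interval -1.4001 to -0.56, edgeR adjusted p = 0.0423). The difference of log2 CPM was -1.21 inside set A, with 1 vector library, and -0.63 inside set B, with 1 ERG library. A test of whether the sets differed in this change gave an unadjusted p of 0.00235 and an edgeR adjusted p of 0.365. As with the set term, these p-values may be too low, since the sets were drawn from these libraries and ERG replicates 1 and 2 nearly coincide. In all leave-one-out fits but that without ERG replicate 3 the adjusted p rose above 0.05, to between 0.0526 and 0.234, with log2 fold changes of -0.99 to -0.88.

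TAL1 (chromosome 1, 47216290 to 47232220, minus strand) is the DNA-binding helix-loop-helix subunit of the LMO2 and LDB1 complex. It was at 351, 351 and 355 CPM with ERG, against 329, 345 and 378 CPM with vector, so that all ERG libraries lay inside the vector range. The log2 fold change was 0.01 (SE 0.13, 95% interval -0.30 to 0.31, edgeR adjusted p = 0.985). On the linear scale the interval runs from 0.815 to 1.24 of the vector level, so changes larger than that are outside it.

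LMO2 (chromosome 11, 33858576 to 33892289, minus strand), the bridge between TAL1 and GATA1, fell with ERG. The 3 ERG libraries had 143, 141 and 159 CPM, and those with vector 292, 311 and 250.4 CPM. The groups were well apart, since the highest ERG library was below the lowest vector library by more than the range within either group. The mean was 148 ± 10.1 CPM with ERG and 284 ± 30.8 CPM with vector (SD, n = 3 each; log2 fold change -0.94, SE 0.14, 95% interval -1.27 to -0.61, edgeR adjusted p = 0.0236). Inside set A the difference was -1.04 and inside set B -0.81. When ERG 1, ERG 2, vector 2 or vector 3 was left out it did not pass (log2 fold change -1.02 to -0.87, edgeR adjusted p = 0.0607 to 0.156).

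LDB1 (chromosome 10, 102107560 to 102120453, minus strand), the dimerising partner of LMO2, was at 516, 514 and 578 CPM with ERG and at 768, 808 and 745 CPM with vector. As for KLF1 and LMO2, ERG replicate 3 was the highest of the ERG libraries and still below every vector library. The mean was 536 ± 36.02 CPM with ERG and 774 ± 31.9 CPM with vector, a log2 difference of -0.53 that did not pass over all genes (SE 0.14, 95% interval -0.86 to -0.20, unadjusted p = 0.00635, edgeR adjusted p = 0.116). DESeq2 called it lower (log2 fold change -0.54, adjusted p = 2.6e-04), as did edgeR with the set term (-0.50, adjusted p = 0.00821). Within the sets the differences were -0.58 in set A and -0.42 in set B.

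CBFA2T3 (chromosome 16, 88874858 to 88977204, minus strand), the corepressor on the complex, was at 230, 238 and 196 CPM with ERG against 228, 205 and 219 CPM with vector. The groups interleaved, and the log2 fold change was 0.02 (SE 0.14, 95% interval -0.29 to 0.34, edgeR adjusted p = 0.942). Thus among the subunits that act together on DNA, LMO2 differed by more than the spread of the libraries, LDB1 did so without passing over all genes, and TAL1 and CBFA2T3 lay inside it.

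GFI1B (chromosome 9, 132944000 to 132991687, plus strand), a repressor that partners with KDM1A, was at 223, 219 and 156 CPM with ERG and at 265, 189 and 187 CPM with vector. In each group the library or libraries of set A were the higher ones. Its log2 fold change was -0.10 (95% interval -0.58 to 0.38, edgeR adjusted p = 0.835), with differences of -0.26 inside set A and -0.27 inside set B. The annotated gene overlaps TSC1 on the other strand, and with no statement on strand the reads of the pair may not have been separated. Genes on the opposite strand, not analysed here, are also annotated across LMO2, TAL1, ZFPM1, NFE2, BCL11A and CBFA2T3, while KLF1, GATA1 and LDB1 have no annotated overlap.

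NFE2 (chromosome 12, 54292111 to 54301121, minus strand) was at 283, 303 and 287 CPM with ERG and at 383, 280.0 and 323 CPM with vector. Vector replicate 1 was the highest, as for GATA1 and GFI1B, and vector replicate 2 the lowest of all 6. The log2 fold change of -0.18 did not pass (95% interval -0.54 to 0.19, edgeR adjusted p = 0.617). BCL11A (chromosome 2, 60450520 to 60555154, minus strand), the repressor of fetal globin genes, was the least abundant of the 10, at 24.1, 21.0 and 16.0 CPM with ERG and 19.4, 21.3 and 18.2 CPM with vector. Its counts were 308, 306 and 235 in the ERG libraries and 220, 280 and 186 in the vector libraries. The log2 fold change was 0.05 (95% interval -0.40 to 0.50, edgeR adjusted p = 0.918), and the differences within the sets had opposite signs, 0.21 in set A and -0.30 in set B.

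**Figure D2:**
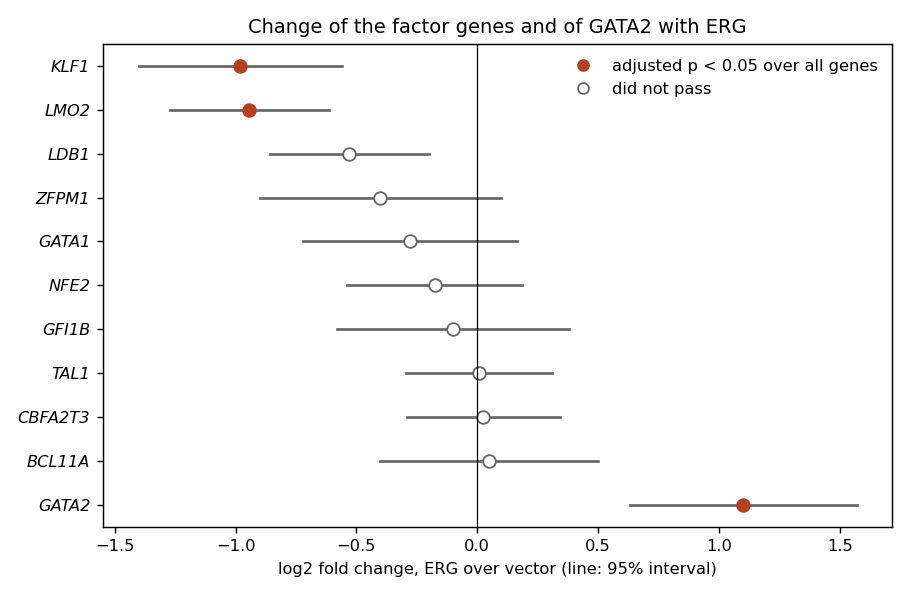
Log2 fold change of ERG over vector (horizontal axis) for the 10 genes and GATA2, with 95% intervals; filled points passed an edgeR adjusted p of 0.05 over all tested genes. KLF1 (-0.98) and LMO2 (-0.94) are filled on the lower side and GATA2 (1.10) on the higher side, while the interval of LDB1 (-0.86 to -0.20) lies below 0 without passing.

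The promoters of KLF1, GATA1 and TAL1 are shown because all 3 genes are known targets of GATA1, and KLF1 fell while GATA1 and TAL1 did not pass. The RefSeq windows (build GRCh38.p14) run from 250 bases before to 50 after an annotated start, and 8 of the 10 genes had at least 1 window, all but LMO2 and NFE2. Capitals mark the letters GATAA on either strand, a form of the motif that GATA factors bind. Other forms, such as GATAG, are neither marked nor counted as GATA matches. They also mark, on either strand, the letters GGAAG, which hold the core that ETS factors bind.
KLF1, chr19:12887152-12887451, minus strand: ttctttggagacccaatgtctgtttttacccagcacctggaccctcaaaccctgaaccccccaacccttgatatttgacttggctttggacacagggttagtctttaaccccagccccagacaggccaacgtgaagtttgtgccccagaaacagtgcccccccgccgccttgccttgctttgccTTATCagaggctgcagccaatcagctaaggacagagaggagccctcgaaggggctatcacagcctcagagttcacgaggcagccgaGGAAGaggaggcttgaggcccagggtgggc
GATA1, chrX:48786340-48786639, plus strand: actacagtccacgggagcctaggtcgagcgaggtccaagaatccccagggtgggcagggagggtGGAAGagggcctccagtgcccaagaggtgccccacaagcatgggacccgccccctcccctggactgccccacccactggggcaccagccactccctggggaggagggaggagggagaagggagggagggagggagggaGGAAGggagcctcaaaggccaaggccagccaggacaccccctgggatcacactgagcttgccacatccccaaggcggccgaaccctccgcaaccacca
TAL1, chr1:47232286-47232585, minus strand: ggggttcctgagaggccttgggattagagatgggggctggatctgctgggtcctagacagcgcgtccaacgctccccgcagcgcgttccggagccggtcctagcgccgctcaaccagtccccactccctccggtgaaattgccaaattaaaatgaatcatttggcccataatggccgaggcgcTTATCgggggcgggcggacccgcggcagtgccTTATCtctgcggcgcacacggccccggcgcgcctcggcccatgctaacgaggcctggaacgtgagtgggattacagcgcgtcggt

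Of 35116 such windows in RefSeq, 22.7% held GATAA on either strand. The ETS letters GGAAG were held by 71.9% of the windows on either strand. The letters CACCC, bound by KLF1, were held by 59.9% on either strand and are not in capitals. The KLF1 window held 1 GATA match, which begins 66 bases before the start site, 1 ETS match and 1 CACCC match. The GATA1 window held 0 GATA matches, 2 ETS matches and 4 CACCC matches, of which 1 shares a base with an ETS match. The TAL1 window shown held 2 GATA matches, which begin 67 and 35 bases before the start site, and 0 ETS matches. Its other annotated window held 0 GATA matches and 3 ETS matches that share end bases. Among the other genes with a window, GFI1B had a GATA match in 1 of 2 windows. Binding was not measured here, and a match is a description of letters only.

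That KLF1 passed and GATA1 did not is no test of a difference between them, so 3 ratios of counts were compared within the libraries (exact permutation test, two-sided, where 3 against 3 libraries cannot give a p below 0.1). The ratio of KLF1 to GATA1 counts was 0.888, 0.895 and 1.52 in the ERG libraries, against 1.41, 2.01 and 2.02 in the vector libraries. ERG replicate 3 lay above vector replicate 1, so the groups overlapped, and the log2 ratio differed by -0.75 (exact permutation p = 0.2, 0.2 after Benjamini-Hochberg adjustment over the 3 ratios). Inside set A the difference was -0.66 and inside set B -0.40.

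The ratio of LMO2 to TAL1 counts was 0.408, 0.4004 and 0.449 in the ERG libraries, against 0.885, 0.901 and 0.662 in the vector libraries. All ERG libraries were below all vector libraries, by 1.93-fold on average, and the p was the smallest that the design allows (log2 difference -0.95, exact permutation p = 0.1, adjusted 0.15). Inside set A the difference was -1.13 and inside set B -0.78. GATA2, the GATA factor of progenitors, whose place on DNA GATA1 takes as red cells form, rose with ERG (1102, 1081 and 1348 CPM, against 437, 559 and 650 CPM with vector; log2 fold change 1.10, SE 0.20, edgeR adjusted p = 0.0416). The ratio of GATA1 to GATA2 counts was 0.179, 0.177 and 0.122 with ERG, against 0.651, 0.343 and 0.299 with vector. It was lower in each ERG library, by 2.59-fold on average (log2 difference -1.37, exact permutation p = 0.1, adjusted 0.15), and lower in both sets (-1.87 in set A and -1.39 in set B). This ratio was chosen with GATA2 already known from earlier results to be higher with ERG. Its direction was therefore largely known beforehand, and its p-value is no independent support.

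**Figure D3:**
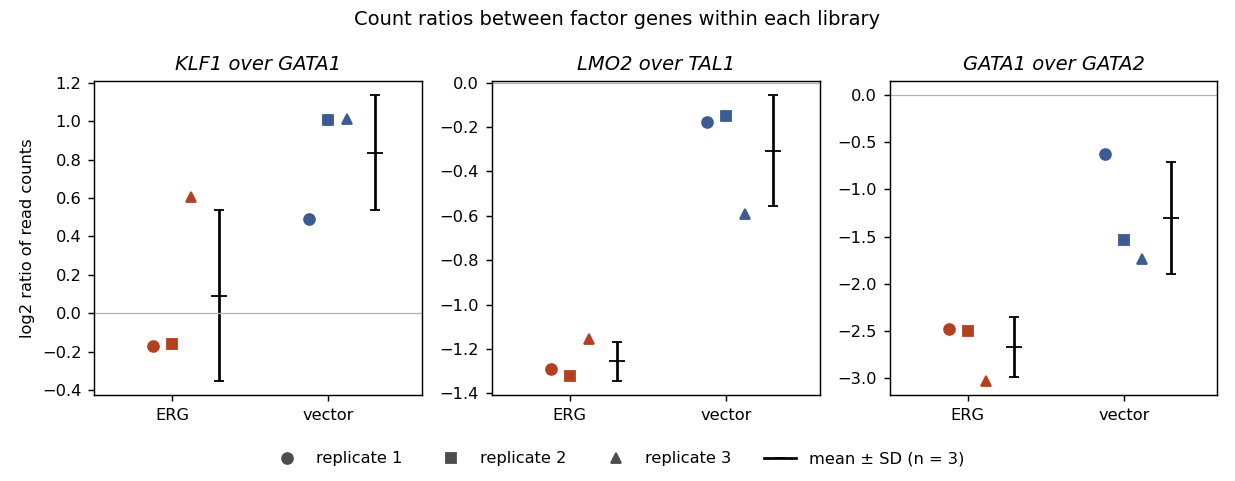
Log2 ratio of read counts of KLF1 to GATA1, LMO2 to TAL1 and GATA1 to GATA2 (vertical axes) in each ERG library at left and each vector library at right, with the mean ± SD of 3. The groups overlap for KLF1 over GATA1 (exact permutation p = 0.2) and are apart for the other ratios (exact permutation p = 0.1, the smallest the design allows).

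Per kilobase of exons of the coding transcripts, the order of levels was LDB1, KLF1, GATA1, NFE2, GFI1B, TAL1, LMO2, CBFA2T3, ZFPM1 and BCL11A in the ERG libraries. In the vector libraries it was LDB1, KLF1, GATA1, NFE2, LMO2, GFI1B, TAL1, CBFA2T3, ZFPM1 and BCL11A. LDB1 led at 202 ± 13.6 CPM per kb with ERG and 292 ± 12.03 CPM per kb with vector (SD, n = 3 each). KLF1 stood at 123 ± 27.7 CPM per kb with ERG, where its libraries overlapped those of GATA1 (123 ± 11.7), and at 244 ± 4.57 CPM per kb with vector, where all its libraries were above those of GATA1 (149 ± 35.1). GATA1 and NFE2 overlapped in both groups, as did GFI1B and TAL1. LMO2 and GFI1B also overlapped in both groups, and with vector LMO2 overlapped NFE2 too. The place of LMO2 beside these genes is therefore not firm. LMO2, at 61.1 ± 4.17 CPM per kb with ERG, was below all TAL1 libraries (69.6 ± 0.389), while with vector it was at 118 ± 12.7 CPM per kb against 69.3 ± 4.91 for TAL1. CBFA2T3, ZFPM1 and BCL11A took the last places in both groups without overlap. The exon length counts every coding transcript of a gene, so the level of BCL11A, with 20490 bases, is understated where shorter forms prevail.

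The counts of related genes below are to be read beside the shares over all tested genes, 0.732% lower and 1.47% higher by edgeR. At an unadjusted p under 0.05 these shares were 6.66% lower and 9.25% higher, and by DESeq2 2.89% lower and 4.2% higher. Of 12 tested partners and relatives in the LDB1 complex, 0 passed in either direction (median log2 fold change 0.07; 2 lower and 2 higher at an unadjusted p under 0.05; DESeq2 called 1 lower and 0 higher). With a replicate block edgeR called 1 of them lower and 1 higher (323 and 582 of all tested genes). With the set term it called 2 lower and 2 higher (5.96% and 7.2% of all tested genes). Among these were TCF3 as lower (edgeR adjusted p = 0.00225) and RUNX1 as higher (edgeR adjusted p = 0.0329). The most abundant were RUNX1, a core factor of blood stem cells, and LYL1, the closest relative of TAL1. RUNX1 was higher in every ERG library than in any vector library, at 376 ± 51.0 CPM with ERG and 252 ± 38.5 CPM with vector (log2 fold change 0.57), without passing (edgeR adjusted p = 0.161). LYL1 was at 306 ± 23.6 CPM with ERG and 301 ± 71.5 CPM with vector. TCF3 was lower in every ERG library than in any vector library, at 101 ± 24.0 CPM with ERG and 169 ± 27.5 CPM with vector. Its log2 fold change of -0.73 did not pass (edgeR unadjusted p = 0.00827, adjusted p = 0.134). In this list 2 genes had all ERG libraries below all vector libraries and 1 had them all above. Of all tested genes 9.54% and 12.3% did so.

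Of 12 GATA and KLF family genes, GATA2 passed as higher and 0 as lower (median 0.06; 1 lower and 2 higher at an unadjusted p under 0.05; DESeq2 called 0 lower and edgeR with the set term 1), and of the leave-one-out fits GATA2 passed only in that without vector replicate 1. Of 7 tested partners and relatives of NFE2, 0 passed (median -0.02; 0 lower and 0 higher at an unadjusted p under 0.05; DESeq2 also called 0). Among these NFE2L1 was at 187 ± 10.05 CPM with ERG and 171 ± 18.3 CPM with vector, and MAFG, a small Maf partner of NFE2, at 125 ± 25.4 CPM with ERG and 105 ± 32.9 CPM with vector. Of 9 other blood regulators, GFI1 and FLI1 passed as higher and 0 as lower (median 0.11; 2 lower and 2 higher at an unadjusted p under 0.05). In this list DESeq2 and edgeR with a replicate block each called 1 gene lower, and edgeR with the set term 2. GFI1, the paralogue of GFI1B that acts in stem and myeloid cells, was at 53.1, 54.0 and 48.5 CPM with ERG against 25.4, 17.0 and 21.3 CPM with vector (log2 fold change 1.29, SE 0.18, edgeR adjusted p = 0.0197). FLI1, the ETS factor closest to ERG, was at 139, 143 and 107 CPM with ERG against 73.9, 60.4 and 52.4 CPM with vector (log2 fold change 1.05, SE 0.18, edgeR adjusted p = 0.0341). Neither passed when ERG 1, ERG 2, vector 2 or vector 3 was left out.

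Of 20 corepressor subunits that these factors recruit, 0 passed (median 0.03; 1 lower and 1 higher at an unadjusted p under 0.05; DESeq2 called 0). The most abundant were CHD4, the remodelling enzyme of the NuRD complex, at 736 ± 74.2 CPM with ERG and 694 ± 131 CPM with vector, and GATAD2A, another NuRD subunit, at 382 ± 55.7 CPM with ERG and 403 ± 64.3 CPM with vector. Of 20 red cell genes known to be bound by GATA1 or KLF1, 3 passed as lower and 0 as higher, against 0.732% and 1.47% of all tested genes. Of the 20, 19 were below 0, against 51.1% of all tested genes. Their median log2 fold change was -0.95, against -0.01 over all tested genes. The erythropoietin receptor EPOR was at 147 ± 6.72 CPM with ERG and 362 ± 22.6 CPM with vector (log2 fold change -1.30, edgeR adjusted p = 0.01). The fetal globin genes HBG2 and HBG1, near-identical copies whose reads may be split unevenly, fell with log2 fold changes of -2.17 (edgeR adjusted p = 0.0318) and -1.997 (edgeR adjusted p = 0.0418). HBG2 was at 1819 ± 747 CPM with ERG and 8185 ± 2286 CPM with vector, and HBG1 at 202 ± 110 CPM with ERG and 806 ± 123 CPM with vector. Other fits, which call more genes in all, also called more of the 20 lower. DESeq2 called 12 of them and 2.89% of all tested genes lower, edgeR with the set term 16 and 5.96%, and edgeR with a replicate block 11 and 2.27%. When 1 library was left out the count was 0 (ERG 1, ERG 2 or vector 2 omitted), 2 without vector replicate 3, 5 without ERG replicate 3 and 6 without vector replicate 1. These lists were chosen with earlier results of these data known.

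**Figure D4:**
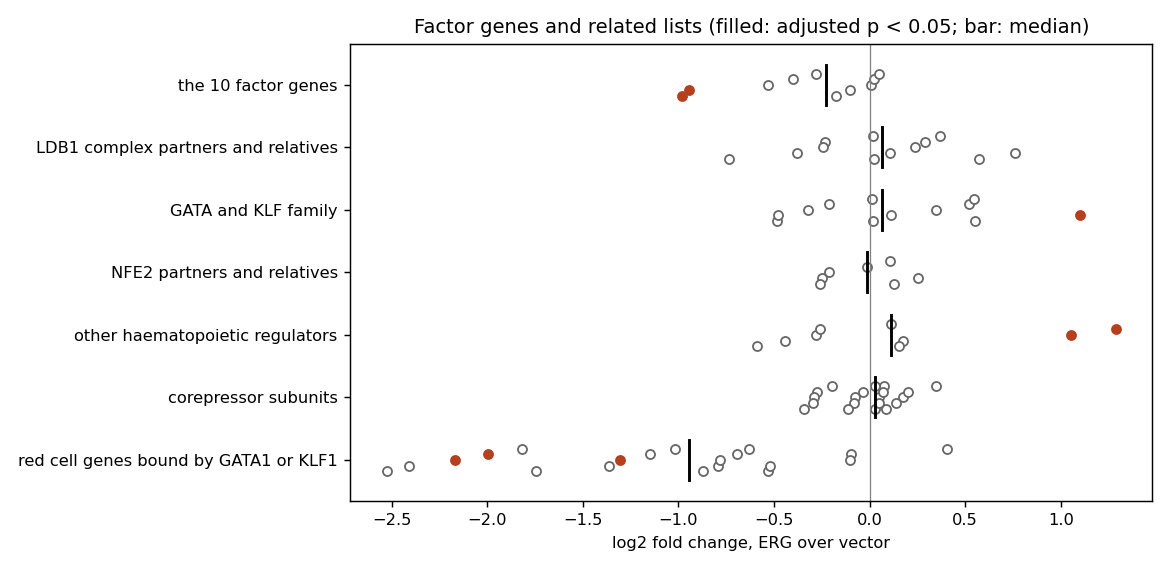
Log2 fold change of ERG over vector (horizontal axis) of each tested gene in the 10 factor genes and 6 related lists (rows); filled points passed an edgeR adjusted p of 0.05 over all tested genes and black bars are medians. The red cell genes (median -0.95) lie further to the lower side than the factor genes (median -0.23), and the corepressor subunits (median 0.03) hold no filled point.

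Genes with the profile most like that of KLF1 over the 6 libraries, among 9638 with a mean of at least 10 CPM, were ITPA, RCL1 and GET4 (Pearson r of log2 CPM 0.998, 0.997 and 0.997). For LMO2 they were TST, LBH and SNX3 (r = 0.995, 0.994 and 0.993), of which TST and LBH passed as lower with ERG (log2 fold change -1.42 and -1.22, edgeR adjusted p = 0.0234 and 0.0188). For GATA1 they were GYPB, which encodes the red cell surface protein glycophorin B, LXN and PHLDB3 (r = 0.998, 0.997 and 0.996). These coefficients describe 6 libraries, of which ERG replicates 1 and 2 nearly coincide, and they carry no test.

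KLF1 and LMO2 kept negative log2 fold changes in all 14 alternative fits, from -1.18 to -0.88 for KLF1 and from -1.02 to -0.87 for LMO2. KLF1 passed in 8 of them and LMO2 in 9. LDB1 ranged from -0.58 to -0.48 and passed in 2. GATA1 ranged from -0.39 to -0.07 and passed in 1. TAL1, ZFPM1, GFI1B, NFE2, BCL11A and CBFA2T3 passed in 0 of the 14. With ERG replicates 1 and 2 summed into 1 library, KLF1 and LMO2 stood at log2 fold changes of -0.89 and -0.92 without passing (edgeR adjusted p = 0.231 for KLF1, 0.157 for LMO2).

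**Figure D5:**
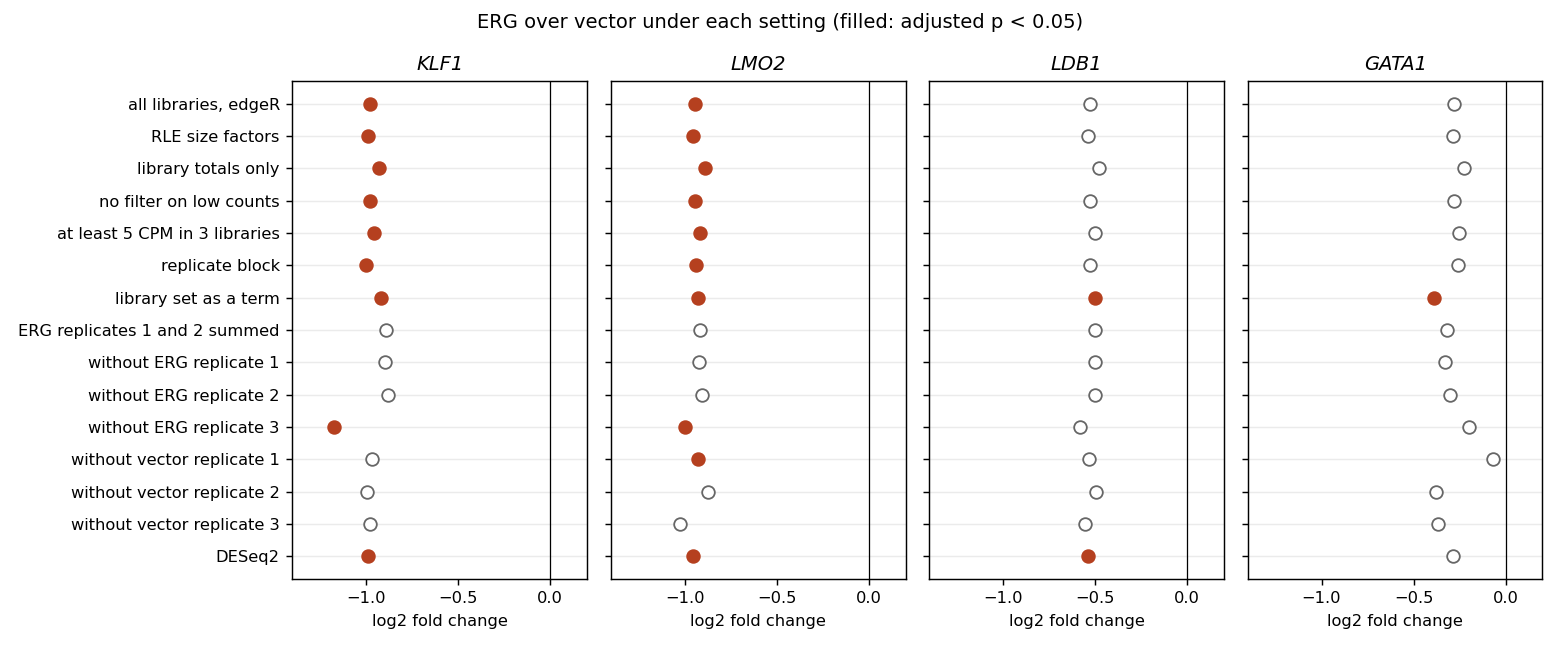
Log2 fold change of ERG over vector (horizontal axes) of KLF1, LMO2, LDB1 and GATA1 under the fit with all libraries and 14 alternatives (rows); filled points passed an adjusted p of 0.05. KLF1 and LMO2 stay near -1 throughout while the adjusted p passes or not with the libraries kept, and GATA1 comes nearest to 0 without vector replicate 1 (-0.07).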

How the data were processed

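The authors deposited 1 table of counts of reads per gene. Its values are whole and its column totals differ, so they were treated as raw counts despite a file name that says CPM. Rows had been filtered before deposit, as the second-highest CPM of every gene is at least 1.01. The labels' protocols describe poly-T capture of mRNA and random priming. The submitters' processing notes list hg38 and edgeR 3.32.1. Aligner, counter, annotation and strandedness are not given in the sources used here. The 3 control columns were read as vector, the sole group other than ERG, and 0 columns of sample values went unused.

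The test covered 14203 genes that reached 1 CPM in 3 or more libraries (618 left out), with edgeR 4.0.16 in R 4.3.3: TMM scaling, two-sided quasi-likelihood test, Benjamini-Hochberg adjustment over all tested genes. The SE was taken as the log2 fold change over the square root of F. Alternatives were other scalings and filters, a replicate block, a term for the library set, ERG replicates 1 and 2 summed, each library left out, and DESeq2 1.42.0. Log2 CPM used a prior count of 2. The procedure was tested on simulated independent libraries, without library sets or nearly coinciding replicates. That test therefore cannot show how the procedure behaves where libraries have these features, as here. Deviations from the group means correlated at 0.63, -0.28 and 0.59 in pairs 1, 2 and 3. Whether replicate numbers pair the libraries cannot be told from this. ERG replicates 1 and 2 nearly coincide, and the deviations within a group sum to 0. The main fit used no pairing. The genes named are the 10 erythroid factor genes, ERG, GATA2, from each related list up to 4 that passed or else the 2 most abundant, and for GATA1, KLF1 and LMO2 the 3 most correlated genes, without unnamed loci. TCF3 was named outside this rule, after its values were seen. The members, the lists, the library sets, and GATA2 with its ratio were chosen with earlier results of these data known. Gene coordinates and exon lengths are those of GENCODE release 29 (hg38).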

Additional observations from a re-analysis of the deposited data

How the results depend on the processing

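With all libraries 313 genes passed, against 905 with the replicate number as a block, 1869 with the library set as a term, 1006 with DESeq2 and 0 with ERG replicates 1 and 2 summed (edgeR; 1277 at an unadjusted p under 0.05). Leaving out 1 library gave 0 to 441: 0 without ERG replicate 1 or 2, 19 without vector replicate 2, 51 without vector replicate 3 and 441 without ERG replicate 3 or vector replicate 1. The factor genes called lower numbered 4 with the set term (KLF1, LMO2, LDB1 and GATA1), 3 with DESeq2, 0 with ERG replicates 1 and 2 summed and 0 to 2 when 1 library was left out (2 without ERG replicate 3, 1 without vector replicate 1, otherwise 0), and 0 were called higher in these fits. With the replicate block 2 were called lower, KLF1 and LMO2 as without it. The other scalings and filters on low counts also gave 2. Without 1 library the difference in log2 ratio ranged from -1.003 to -0.61 for KLF1 over GATA1, -1.09 to -0.87 for LMO2 over TAL1 and -1.59 to -1.03 for GATA1 over GATA2.

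Of the genes that did not pass, some changed sign. TAL1 had log2 differences of -0.0025 with RLE size factors, -0.0024 with DESeq2 and -0.026 within set B. BCL11A had -0.046 with the set term, -0.030 with ERG replicates 1 and 2 summed and -0.30 within set B, and CBFA2T3 -0.039, -0.016 and -0.11 in the same settings. With 1 library left out the log2 fold change ranged from -0.036 to 0.067 for TAL1, -0.089 to 0.20 for BCL11A, -0.030 to 0.11 for CBFA2T3 and -0.19 to 0.084 for GFI1B. The causes were not tested. The lowest count of a factor gene in a library was 186, that of BCL11A in vector replicate 3.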
